A study of Rattus norvegicus with 12 samples.

Results

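The fracture hematoma of young and old rats was compared for genes that responded to the stiffness of the fixator unequally at both ages. This interaction of age and fixation used all 12 arrays of the series and was calculated as YSR minus YR, less OSR minus OR, on the log2 scale, where Y and O stand for young and old, SR for semi-rigid and R for rigid fixation. It was examined in the 12360 of 31042 probe sets without controls whose mean log2 signal over all arrays was 8 or higher. A positive value means that semi-rigid relative to rigid fixation gave a higher signal in young than in old rats, and a negative value the converse.

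All groups were female Sprague-Dawley rats with a femoral midshaft osteotomy held open at 1.5 mm by an external fixator, and tissue was taken on day 3. Ages were 12 weeks (young) and 52 weeks (old). The fixator sat 7.5 mm from the bone where it was rigid and 15 mm away where it was semi-rigid. Each group comprised 9 animals pooled by 3, so that 3 arrays per group each carried the RNA of other animals. The spread between arrays is therefore that of pools and not of individual rats. No group without an osteotomy was part of the comparison.

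The fracture hematoma is the blood clot that fills a bone defect and is replaced first by inflammatory cells and then by vessels and fibrous tissue. Macrophages and neutrophils clear debris, proteases of the matrix metalloproteinase family open paths for cells and vessels, and osteoclasts resorb bone ends. The stiffness of the fixator sets how far the fragments move against each other, and both this movement and the age of the animal are known to influence the early phase of bone healing.

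No probe set was detected after adjustment as differing between the ages in its response to fixation. Of the 12360 probe sets, 0 (0%) had an adjusted interaction p under 0.05 in limma, and the smallest adjusted p over all probe sets was 0.978. Without adjustment 400 (3.24%) lay under 0.05, of which 230 were positive (1.86%) and 170 negative (1.38%). Where no probe set has an interaction, a share of 0.05 falls under this limit, so that the 400 were not an excess. The genes below are therefore described by their values and none of them is a call. A 2-way analysis of variance, named in the methods, put 425 probe sets at an unadjusted p under 0.05 and 0 at an adjusted one. It was run here on the deposited log2 signals of all probe sets, whereas the study ran it on preselected genes after PLIER summarization. Every other alternative processing also gave 0 adjusted calls. The 400 probe sets had a median absolute interaction of 0.71 (log2), reached from -3.50 for Fhl1 to 2.36 for Mmp9, and 68 of them were at or above 1 in size. Over all 12360 probe sets the median interaction was 0.00, the 10th and 90th percentiles were -0.45 and 0.37, and the median standard error was 0.28.

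The 400 probe sets were then sorted by shape, from the share of the interaction that lay in young rats. A reversal had a share between 0.25 and 0.75, so that the fixation differences of the ages had opposite signs and neither carried more than 3 times the other. An effect in young only had a share above 0.75 and an old difference of at most 0.25 of the interaction, and an effect in old only had a young share from -0.25 to under 0.25. By these limits 221 probe sets (55.2%) were reversals, 126 (31.5%) were effects in old only, 49 (12.2%) were effects in young only and 4 (1%) had the same direction with unequal size. Over all 12360 probe sets these shapes made up 24.6%, 18.6%, 14.2% and 42.6%. Because a large interaction needs fixation differences that lie far apart, selection by its p favours opposite signs, and the higher share of reversals among the 400 is no support for a reversed response.

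Few of the reversals held within both ages. Only 6 of the 400 probe sets had an unadjusted p under 0.05 for fixation in young and also in old rats with opposite signs, whereas 207 reached it in old rats alone, 81 in young rats alone and 106 in neither. The arrays of both fixations were fully separated in both ages and in opposite directions for 29 of the 12360 probe sets (0.235%), and 25 of these were among the 400. Separation in young rats, in either direction, was found for 8.62% and separation in old rats for 12.3% of all probe sets. The 29 probe sets are given as a description, and their number is no support for a reversed response.

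**Figure D1:**
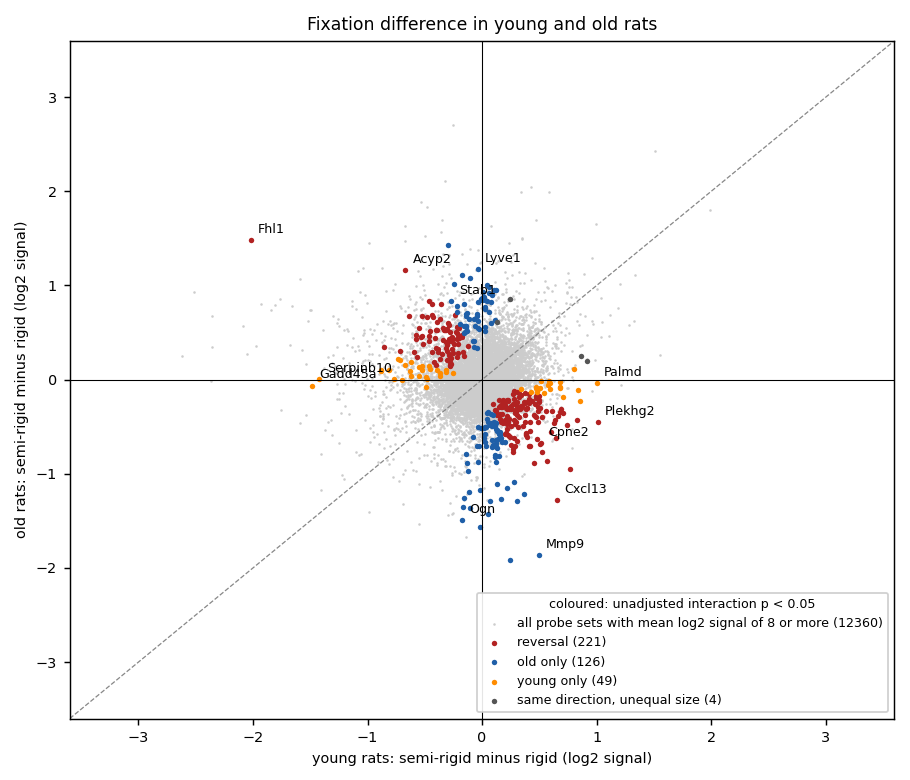
Each point is 1 of the 12360 probe sets, with semi-rigid minus rigid in young rats on the x axis and in old rats on the y axis (both log2 signal); the dashed line marks equal differences and 1 point lies outside the axes. The 400 probe sets with an unadjusted interaction p under 0.05 are coloured by shape and lie mostly in the upper left and lower right quadrants, where the signs are opposite, or along the vertical axis (old only).

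The limits of the classes were not gaps in the data. Rab12 was the last probe set inside the p limit (0.0498) and Apobec1 the first outside (0.0501). Next to the share of 0.25, Eepd1 (0.248) fell to old only and Mterf3 (0.253) to reversal. At the upper limit Bgn (0.745) was a reversal and Cacybp (0.757) an effect in young only. With limits of 0.35 and 0.65, 152 probe sets were reversals, 170 were effects in old only and 74 were effects in young only. Effects in old only were then the largest class, so that the order of the classes depends on the limits.

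The arrays differed in RNA quality in a way that touches young semi-rigid and old rigid animals. Degraded RNA raises the signal of 3' over 5' control probe sets, and for Gapdh this log2 ratio reached 6.69 on array 1 of YSR and 2.95 on array 1 of OR. It was from 1.02 to 1.59 in YR and from 0.327 to 0.492 on the other 7 arrays. All arrays had a trimmed mean signal of 500.2 and array medians were 126.9 to 167.5. The number of arrays limits the precision. In the tissue, markers of macrophages (Cd68, 13.02 to 13.98 in log2 signal), platelets (Pf4, 13.70 to 15.02), red cell precursors (Alas2, 12.70 to 15.01) and fibroblasts (Col3a1, 14.69 to 15.57) were bright on every array, and the muscle marker Ckm was measured between 4.72 and 13.33. Cdh5 and Sp7 had no probe set of their own. As these were bulk samples, fewer cells of a type and less RNA per cell cannot be told apart.

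Reversals with a positive interaction, in which the signal was higher with semi-rigid fixation in young and with rigid fixation in old rats, were led by Cpne2, Efemp2, Plekhg2, Acp5 and Vegfc. They were the 5 with the smallest p of 19 genes with a positive reversal of at least 1. In all 5 the YSR arrays lay above the YR arrays without overlap, and in Cpne2 and Vegfc the OSR arrays also lay below the OR arrays.

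Cpne2 encodes a copine, a calcium-dependent membrane-binding protein. Its log2 signal was 8.40, 8.66 and 8.30 in YSR, 7.73, 8.13 and 7.96 in YR, 7.85, 7.69 and 7.96 in OSR and 8.28, 8.52 and 8.72 in OR. Fixation separated the arrays at both ages in opposite directions, with a difference of 0.51 in young and -0.67 in old rats. The interaction was 1.19 ± 0.28 (log2, SE from limma), and it stayed between 1.08 and 1.33 under all 20 alternative fits.

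Vegfc, the growth factor of lymphatic vessels, showed 8.53, 8.59 and 8.13 in YSR, 7.94, 8.03 and 8.02 in YR, 8.51, 8.71 and 7.80 in OSR and 9.14, 9.05 and 8.94 in OR. The OR arrays were the highest of all 12 and the YR arrays were lower than every array but OSR array 3. The difference was 0.42 in young and -0.70 in old rats, with an interaction of 1.12 ± 0.33 (log2, SE).

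Acp5 encodes tartrate-resistant acid phosphatase, the classical enzyme marker of osteoclasts. It gave 10.56, 11.04 and 10.67 in YSR and 10.16, 10.27 and 10.34 in YR. In old rats it gave 11.25, 11.06 and 10.89 with semi-rigid and 12.38, 11.21 and 11.67 with rigid fixation, where OSR array 1 lay above OR array 2. The interaction was 1.19 ± 0.33 (log2, SE) and was 0.88 without OR array 1, the lowest of its alternatives.

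Efemp2 (fibulin-4), a protein needed to assemble elastic fibres, gave 10.97, 10.85 and 10.71 in YSR, 10.23, 9.82 and 10.41 in YR, 10.38, 10.39 and 9.94 in OSR and 10.50, 10.38 and 10.76 in OR. Young arrays were separated by 0.69 on average, whereas old arrays overlapped, with a difference of -0.31. Plekhg2 had the same pattern, with 8.24, 8.65 and 8.09 in YSR against 7.66, 7.25 and 7.04 in YR and an overlap between 7.99, 8.51 and 7.55 in OSR and 8.58, 8.53 and 8.28 in OR. Their interactions were 1.00 ± 0.25 and 1.46 ± 0.39 (log2, SE). For both, the young side carried most of the interaction. The other probe set of Efemp2 differed by 0.66 in young and 0.10 in old rats (interaction 0.57), so that its reversal was not found across the gene.

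The other 14 genes of this class had interactions between 1.02 and 1.93. They included the matrix and stromal genes Col6a1, Sned1, Spon1, Cd248 (endosialin) and the protease Htra3, the hyaluronidase Hyal3, the heparan sulfate enzyme Ndst2, the adhesion enzyme Aoc3, the endothelial gene Ecscr, the sphingosine phosphate transporter Spns2, and the chemoattractants Rarres2 (chemerin) and Cxcl13. Brpf3 and LOC100909539 completed the list. Cxcl13, which attracts B cells, had the largest value, with 9.56, 8.24 and 8.18 in YSR, 7.88, 7.51 and 8.64 in YR, 10.38, 9.88 and 8.44 in OSR and 10.53, 11.23 and 10.77 in OR. Its old arrays were separated and its young arrays were not, and its interaction of 1.93 ± 0.69 was 1.64 without the 2 arrays of highest Gapdh ratio. The dimmer probe sets of Htra3 and Cd248 had interactions of the opposite sign (-1.02 and -1.28 for Htra3 and -1.47 for Cd248).

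Reversals with a negative interaction, lower with semi-rigid fixation in young and higher in old rats, were led by Psme4, Acyp2, Mef2a, Zfp91 and Bin1, the first 5 of 14 genes. In none of the 5 were the old arrays of both fixations separated, and in young rats they were separated for Psme4 and Mef2a.

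Acyp2, a small phosphatase described as the muscle type of acylphosphatase, gave 8.97, 7.20 and 8.07 in YSR, 8.68, 8.75 and 8.82 in YR, 7.86, 9.12 and 8.81 in OSR and 8.12, 7.08 and 7.09 in OR. Its highest young value was a YSR array and its old arrays overlapped through OSR array 1. The interaction was -1.83 ± 0.62 (log2, SE) and reached -2.63 without the 2 arrays of highest Gapdh ratio.

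Mef2a, a transcription factor of muscle and other cells, gave 9.13, 10.55 and 10.29 in YSR, 11.07, 10.68 and 10.79 in YR, 10.29, 10.61 and 10.75 in OSR and 10.11, 9.91 and 10.59 in OR. The lowest value came from YSR array 1, the array with the highest Gapdh ratio. Without both arrays of high ratio the interaction of Mef2a went from -1.21 to -0.73. Its 3 other probe sets also had negative interactions (-0.28, -0.55 and -1.27).

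Psme4, which encodes an activator of the proteasome, likewise had its lowest value in YSR array 1 (10.09, 10.64 and 11.09 in YSR against 11.16, 11.16 and 11.25 in YR). Old arrays gave 11.18, 10.96 and 11.45 with semi-rigid and 10.59, 10.59 and 11.12 with rigid fixation and overlapped. Its interaction was -1.01 ± 0.32 and -0.66 without both arrays, while its other 2 probe sets gave 0.19 and 0.15, so that this reversal was not found across the gene. Zfp91, a zinc finger ubiquitin ligase, differed between its probe sets in the same way, with -1.13 ± 0.43 at the named one (-0.58 without both arrays), -1.20 at another and values from -0.55 to 0.26 at the others of mean signal above 8.

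Bin1, which bends membranes and helps to form the tubules of muscle fibres, gave 9.60, 10.34 and 10.29 in YSR, 10.86, 9.92 and 10.72 in YR, 9.83, 10.40 and 10.40 in OSR and 9.08, 9.49 and 10.07 in OR. The arrays overlapped at both ages, and its interaction of -1.09 ± 0.43 was -0.62 without both arrays of high ratio. The 9 further genes of this class had interactions between -3.50 and -1.01 and included the muscle LIM protein Fhl1, the muscle cofilin Cfl2, Pdlim7, the sugar enzyme Pgm1, the Wnt mediator Dvl1, and Opa3, Stxbp5, Usp13 and Rab12. Fhl1 gave 5.95, 9.63 and 9.69 in YSR, 11.35, 9.75 and 10.23 in YR, 7.86, 11.87 and 11.24 in OSR and 9.01, 7.78 and 9.75 in OR. Its very low YSR array 1 was again the array of highest Gapdh ratio, and its interaction of -3.50 ± 1.53 was -2.35 without both such arrays. The brightest probe set of Fhl1 gave -1.18. Probe sets brighter than the named ones gave 0.23 for Rab12 and -0.01 for Pdlim7. Those of Cfl2, Pgm1, Dvl1 and Usp13 gave -0.61, -0.34, -0.45 and -1.24, and those of Stxbp5 gave -0.27 and -0.41.

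Several of these genes are expressed in skeletal muscle, and the muscle content varied between the arrays. The summed signal of 23 measured skeletal muscle genes was 44370 to 96302 in YSR, 64120 to 126572 in YR, 14532 to 158443 in OSR and 18739 to 85176 in OR. The probe set of Myh1, a myosin heavy chain, read 9457 on OSR array 1 and 15313 on OR array 2 and made up most of both of these sums. Without Myh1, left out after its values were seen, the other 22 genes summed to 35489 to 87742 in YSR, 53502 to 117443 in YR, 5075 to 146597 in OSR and 3427 to 68671 in OR. The lowest sums of all 12 arrays were then those of OR array 2 and, next to it, OSR array 1, on which Acyp2, Fhl1 and Bin1 were the lowest of their OSR arrays. The part of muscle RNA in these reversals was not tested.

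**Figure D2:**
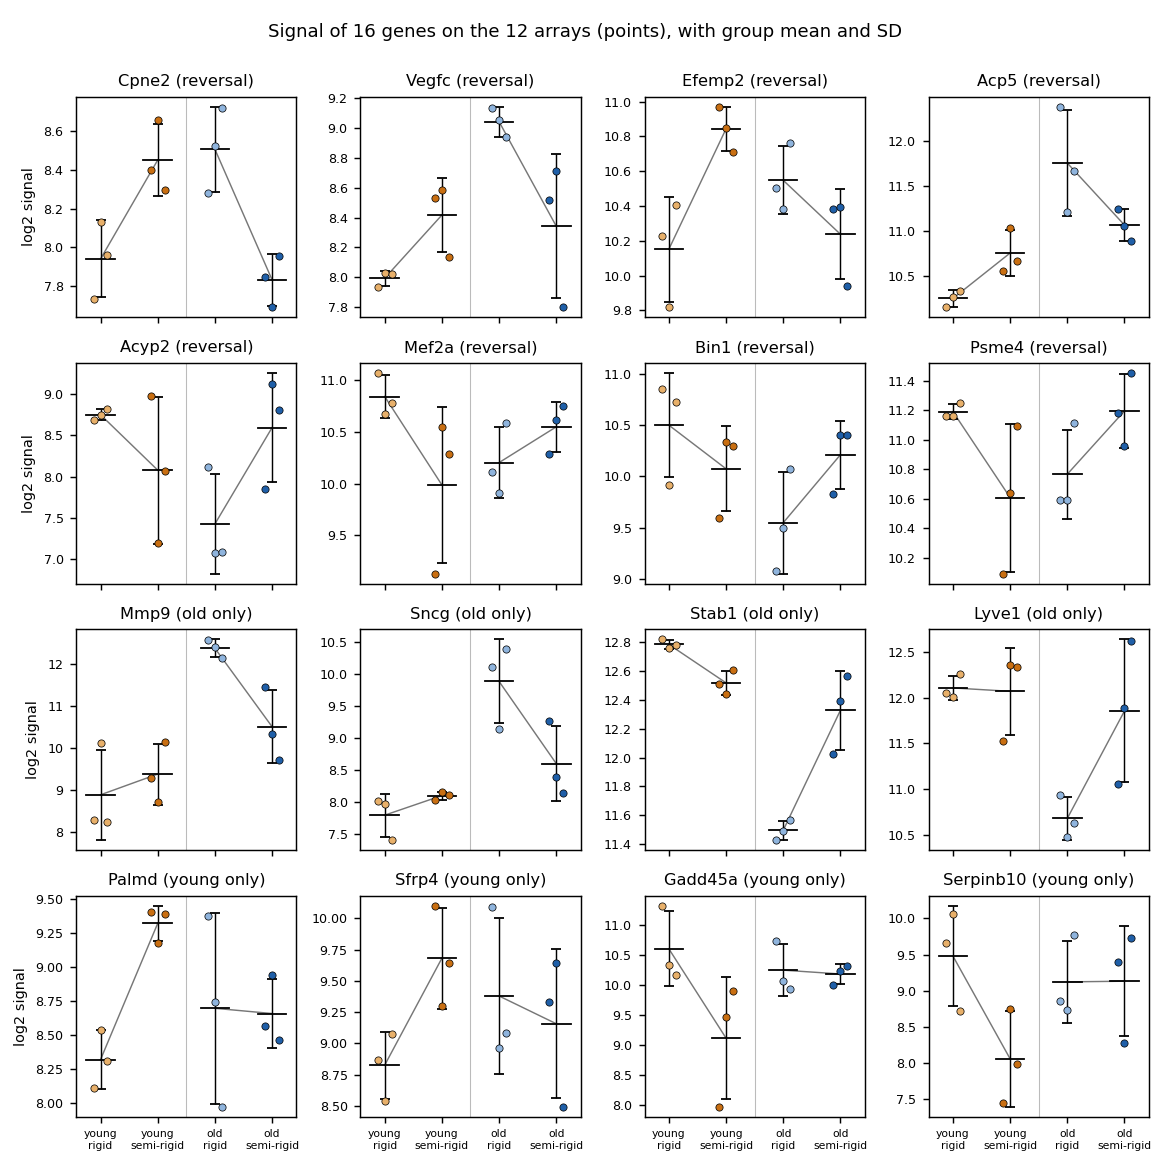
Log2 signal (y axis) of 16 genes on each array (points), by age and fixation, with group means, SD and lines that join the means of an age. The upper 2 rows are reversals, with Cpne2 and Vegfc separated at both ages, the next row shows effects in old only, where Mmp9 is highest and Stab1 lowest in OR, and the last row shows effects in young only, where the old arrays of both fixations overlap.

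The 29 probe sets whose arrays were separated in opposite directions at both ages had 15 positive and 14 negative interactions of 0.23 to 1.19 in size. Separation does not require size, and most of these changes were small. Of the 29, 19 had 1 symbol. Besides Cpne2, Vegfc and Stab1, and chosen after their values were seen, they included Chpf, Tank, Ccdc50 and Dpf2 with positive, and Cnnm3, Psmc6, Phf8, Wdr48 and Lats1 with negative interactions. Another probe set of Dpf2 had the opposite sign (-0.39). Other probe sets gave smaller values of the same sign for Cnnm3 (-0.23), Psmc6 (-0.16 and -0.10) and Wdr48 (-0.30).

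Chpf, which lengthens the chondroitin chains of proteoglycans, gave 9.20, 9.41 and 9.29 in YSR, 8.91, 8.66 and 8.87 in YR, 8.99, 9.02 and 8.74 in OSR and 9.18, 9.36 and 9.21 in OR. With Cpne2, it was 1 of the 2 genes with a symbol that were separated and also had an unadjusted p under 0.05 in each age, and its interaction of 0.82 ± 0.21 lay between 0.73 and 0.90 in the alternatives. Asph, a hydroxylase of the endoplasmic reticulum, and Tob1, an inhibitor of cell proliferation, passed that p in each age with array overlap in 1 age, and had interactions of 0.86 ± 0.26 and -0.93 ± 0.30. A brighter probe set of Asph gave 0.49, while dimmer ones gave -1.52 and -0.92.

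Cnnm3, of a family linked to magnesium transport, gave 8.53, 8.25 and 8.62 in YSR, 8.98, 8.77 and 8.62 in YR, 9.02, 8.83 and 8.98 in OSR and 8.47, 8.48 and 8.30 in OR. In young rats the separation rested on values of 8.62 on both sides that differ only beyond the printed digits. Lats1, a kinase of the Hippo pathway, which responds to mechanical cues, was separated at both ages by only -0.28 in young and 0.14 in old rats.

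Effects in old only made up the second largest class, with 71 positive and 55 negative interactions among 126 probe sets. The arrays of old rats were separated in 101 of these, which the choice of the class largely fixes. Positive effects, with higher signal under rigid fixation in old rats, were led by Sncg, Mmp9, Ptprv, Ptn and Ogn of 11 genes. Negative effects of at least 1 were found in Stab1, Lyve1, Slc28a2 and Tppp3 alone.

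Mmp9, the gelatinase that degrades basement membranes and was followed up in the study, gave 9.28, 8.71 and 10.15 in YSR, 8.30, 10.13 and 8.23 in YR, 11.45, 10.35 and 9.73 in OSR and 12.57, 12.40 and 12.15 in OR at the brighter of its 2 probe sets. Old rigid arrays lay above all others, and the young groups overlapped. Semi-rigid minus rigid was 0.49 in young and -1.87 in old rats. The interaction was 2.36 ± 0.74 (log2, SE), the largest positive value, and 2.16 ± 0.72 at the dimmer probe set. It remained between 1.97 and 2.98 under all 20 alternative fits.

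Mmp13, the collagenase also followed up, had differences of the same sign at both ages. Its log2 signal was 9.94, 7.93 and 10.49 in YSR, 8.70, 10.75 and 9.79 in YR, 12.08, 10.68 and 10.46 in OSR and 12.80, 12.88 and 11.85 in OR. Both ages were lower with semi-rigid fixation, by -0.29 in young and -1.44 in old rats, the arrays overlapped in both, and the interaction was 1.15 ± 0.93. Its young share of -0.257 lay just outside the limit of effects in old only, the shape was kept in 14 of the 20 alternative fits, and the interaction ranged from 0.62 without YR array 1 to 1.91. The study itself reported a significant interaction for both Mmp9 and Mmp13. It rested on the 2-way test of its array summaries and on quantitative PCR that also covered a later day. Neutrophils and osteoclasts, known sources of Mmp9, had their highest summed signals in OR as well. The 11 measured neutrophil genes summed to 10038 to 18200 in YSR, 11456 to 51218 in YR, 23769 to 68206 in OSR and 36919 to 96283 in OR. OR arrays 1 and 2, at 36919 and 42044, lay below OSR array 1 and YR array 2. The 6 neutrophil genes at the limit had a median interaction of -0.01, with a median difference of -0.28 in young and -0.45 in old rats. The within-group SD of the median level of this list was 0.91. Its median interaction ranged from -0.54 to 0.58 over the 20 alternatives, with the sign kept in 13, so that an interaction of these genes could not be judged. The part of either cell type in the Mmp9 values was not tested.

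Sncg (gamma-synuclein), a protein of nerve and fat cells, gave 8.03, 8.15 and 8.10 in YSR, 8.01, 7.96 and 7.40 in YR, 9.27, 8.39 and 8.14 in OSR and 10.12, 9.15 and 10.40 in OR. Old arrays overlapped through OSR array 1 and OR array 2, and the young arrays lay within a narrow range that was separated by little. Its interaction was 1.60 ± 0.48. Of the fat cell markers, Adipoq read 4.40 to 7.16 in young rats and 6.80 to 10.13 in old ones, with overlap between OSR and OR. Plin1 read 4.74 to 7.09 in young rats, 6.90 to 8.71 in OSR and 8.42 to 9.19 in OR. The 23 measured fat cell genes summed to 31556 to 44581 in YSR, 31918 to 37208 in YR, 31964 to 36855 in OSR and 34957 to 46928 in OR, so that the groups overlapped. These are sums of linear signal, in which the brightest members, Fabp4 and Lpl (mean log2 signal 13.21 each), weigh most, and they do not follow the dimmer markers Adipoq and Plin1. The part of fat cells in the Sncg values was not tested.

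Ptn (pleiotrophin), a heparin-binding growth factor of bone and nerve, gave 11.22, 10.80 and 11.36 in YSR, 10.86, 10.29 and 11.74 in YR, 10.56, 9.26 and 10.01 in OSR and 11.36, 11.41 and 10.87 in OR. Ogn (osteoglycin), a small matrix proteoglycan, gave 8.78, 8.37 and 8.51 in YSR, 8.74, 8.13 and 9.32 in YR, 8.15, 7.28 and 7.001 in OSR and 9.10, 8.60 and 9.21 in OR. Unlike in Mmp9, the low old semi-rigid group stood apart here, and OR was close to the young groups. The interactions were 1.43 ± 0.51 for Ptn and 1.32 ± 0.48 for Ogn, whose other 3 probe sets gave 1.10, 1.17 and 0.99.

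Ptprv, a receptor phosphatase of osteoblasts, was separated in old rats, with 8.34, 7.82 and 7.34 in OSR against 9.35, 8.73 and 8.89 in OR. Its young arrays overlapped (8.89, 8.19 and 7.80 in YSR and 7.76, 8.09 and 8.37 in YR). The interaction of 1.38 ± 0.46 was 0.90 without the 2 arrays of high Gapdh ratio. The further 6 genes, Gal, Nrep, Actg2, Ptprb, Gja4 and Epas1, had interactions of 1.08 to 1.56. Ptprb and Gja4 are endothelial, Actg2 belongs to smooth muscle and Epas1 encodes a hypoxia-inducible factor that is abundant in endothelium.

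Stab1, a receptor by which macrophages and sinusoidal endothelium take up waste, had the smallest p of all (5.81e-05, adjusted p = 0.978 in limma). Its log2 signal was 12.51, 12.44 and 12.61 in YSR, 12.82, 12.76 and 12.78 in YR, 12.03, 12.39 and 12.56 in OSR and 11.43, 11.49 and 11.56 in OR. The OR arrays were the lowest of all, and the YSR arrays were also all below the YR arrays. With a young share of 0.243, it was counted as an effect in old only by a small margin, although its arrays were separated in opposite directions at both ages. The interaction was -1.10 ± 0.19 and was -0.98 at its smallest, without OSR array 3. Its adjusted p was 0.147 at the lowest, without OSR array 1.

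Lyve1, a hyaluronan receptor of lymphatic endothelium and of some macrophages, gave 11.52, 12.36 and 12.33 in YSR, 12.05, 12.01 and 12.25 in YR, 11.06, 11.88 and 12.62 in OSR and 10.94, 10.47 and 10.63 in OR. Young arrays overlapped and the old rigid arrays were the lowest. The interaction was -1.21 ± 0.46, and -1.72 at its other probe set. Slc28a2, a nucleoside transporter, gave 12.59, 13.05 and 12.59 in YSR, 12.97, 12.99 and 12.93 in YR, 11.87, 12.36 and 12.99 in OSR and 11.64, 11.14 and 12.08 in OR, with overlap at both ages and an interaction of -1.003 ± 0.38. Tppp3, which bundles microtubules, had -1.29 ± 0.56, but its p stayed under 0.05 in only 7 of the 20 alternative fits, against 20 for Stab1, 18 for Lyve1 and 16 for Slc28a2. Its OR arrays spread from 9.11 to 10.92.

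Effects in young only were the smallest class, with 21 positive and 28 negative interactions. Only Palmd and Sfrp4 reached an interaction of 1 and Gadd45a and Serpinb10 an interaction of -1 or lower. Palmd (palmdelphin), a cytosolic protein linked to cell shape, gave 9.40, 9.17 and 9.39 in YSR and 8.11, 8.54 and 8.31 in YR, which did not overlap. Its old arrays, at 8.57, 8.94 and 8.47 in OSR and 9.38, 8.74 and 7.98 in OR, overlapped fully. The interaction was 1.04 ± 0.41, while 2 dimmer probe sets gave -0.53 and -3.00 and another 1.53.

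Sfrp4, a secreted Wnt antagonist, gave 10.10, 9.30 and 9.65 in YSR, 8.87, 8.54 and 9.07 in YR, 9.33, 9.64 and 8.50 in OSR and 10.10, 8.96 and 9.08 in OR. Young arrays were separated and old arrays were not, and its interaction of 1.08 ± 0.48 was 0.51 without the 2 arrays of high Gapdh ratio. Gadd45a, a growth arrest gene induced by DNA damage and other stress, gave 7.97, 9.47 and 9.90 in YSR, 11.32, 10.32 and 10.16 in YR, 10.001, 10.23 and 10.31 in OSR and 10.73, 10.07 and 9.93 in OR. The lowest value was in YSR array 1, and without that array its interaction of -1.43 ± 0.61 was -0.85.

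Serpinb10, a protease inhibitor of blood-forming cells, gave 7.44, 8.75 and 7.98 in YSR, 9.66, 10.06 and 8.71 in YR, 9.39, 8.28 and 9.72 in OSR and 8.86, 8.73 and 9.77 in OR. The young arrays overlapped by a small amount. Its interaction was -1.43 ± 0.65, and the p stayed under 0.05 in 5 of the 20 alternative fits, the lowest count among the named genes of the 3 shapes, with 8 for Sfrp4, 10 for Gadd45a and 15 for Palmd.

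The group whose mean lay farthest from the other 3 was most often OR. Among the 400 probe sets it was OR in 216 (54%), YR in 77 (19.2%), YSR in 66 (16.5%) and OSR in 41 (10.2%). Over all 12360 probe sets OR was farthest in 35.3%, YR in 19.7%, YSR in 26.1% and OSR in 18.9%. This held for reversals too. OR was the highest group apart in 58 of 136 positive and the lowest group apart in 44 of 85 negative reversals. Among effects in old only, OR stood apart in 60 of 71 positive and 52 of 55 negative interactions. The 400 probe sets and their shapes were chosen from these same values, and an effect in old only largely requires an old group to stand apart. These shares are therefore no support for a response particular to OR.

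Other probe sets of the same genes offer a partial check, although they measure the same RNA on the same arrays. Among the 400 probe sets, 102 genes had another probe set at or above the limit, and 141 of the 181 pairs (77.9%) had interactions of the same direction. Over all pairs of probe sets of a gene the share was 57.8%. In 34 of the 181 the other probe set also had an unadjusted p under 0.05, and all 34 had the same direction. Pairs were counted from each selected probe set, so that a pair with both members among the 400 entered from either side. The 34 are therefore not all separate pairs, and such pairs weigh more than the others in the 77.9%.

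Gene lists were described by the brightest probe set of each gene. Of 8320 genes with a mean log2 signal of 8 or higher, 238 (2.86%) lay under an unadjusted p of 0.05 for the interaction, 158 with a positive (1.9%) and 80 with a negative value (0.962%). The 238 were likewise not an excess over a share of 0.05. The median interaction of these 8320 genes was 0.03, with 4512 above 0 and 3808 below. The lists named below had at least 10 such genes and a median of at least 0.2 in size. Beside each median stands the within-group SD of the median level of the list, a measure of how far replicate arrays of a group lay apart. This SD is that of single arrays, whereas an interaction combines the means of 4 groups of 3 arrays, so that it is not an SE of the median. No list was tested, and a median above this SD is not thereby a detectable interaction.

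The median vessel gene was lower with semi-rigid than with rigid fixation in old rats and was near 0 in young rats. Of 26 genes of endothelium and angiogenesis, 22 had positive interactions, with a median of 0.65 (within-group SD 0.33; median difference -0.04 in young and -0.69 in old rats). At an unadjusted p under 0.05 there were 4 positive members, Vegfc, Col18a1, Gja4 and Plvap, and 1 negative, Lyve1. Col18a1, the collagen that yields endostatin, had 0.84 ± 0.37, and Gja4, a gap junction protein of arteries, 1.18 ± 0.53. The other probe set of Col18a1 gave 0.22. Genes of smooth muscle and pericytes had the same pattern, with 12 of 16 positive, a median of 0.55 (SD 0.25) and 2 at an unadjusted p under 0.05 (Actg2 and Tpm2). The interaction of Tpm2 was 0.66 at the probe set counted and -0.95 at its other one. Tagln, a contractile protein, had 10.71, 9.94 and 10.17 in YSR, 10.85, 9.52 and 10.83 in YR, 11.63, 10.94 and 9.87 in OSR and 12.03, 11.93 and 12.12 in OR, and an interaction of 1.08 ± 0.58. Its OR arrays were the highest, and the young groups overlapped. Without OSR array 3 the median of the smooth muscle list was 0.26, and without OR array 2 that of the endothelial list was 0.41.

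Proteases and inhibitors had 15 of 20 positive interactions and a median of 0.46 (SD 0.19), which was 0.27 without OSR array 3 and 0.29 when every probe set of a gene was taken. There were 5 positive (Mmp9, Htra1, Htra3, Fap and Mmp23) and 1 negative member (Adam8) at an unadjusted p under 0.05. Htra1, a secreted serine protease, had 0.78 ± 0.26, and its p stayed under 0.05 in all 20 alternative fits. Fap, a protease of activated fibroblasts, gave 8.73, 8.54 and 8.82 in YSR, 8.62, 8.71 and 9.14 in YR, 9.27, 8.44 and 8.36 in OSR and 9.94, 9.43 and 9.62 in OR. It was separated in old rats and overlapped in young ones, with an interaction of 0.85 ± 0.35. Fibroblast and collagen genes had 25 of 33 positive interactions, a median of 0.27 (SD 0.23) and 5 positive members (Col6a1, Col6a2, Fap, Bgn and Ogn) against 1 negative (Pdpn) at that limit. The median was 0.45 without OSR array 2, 0.48 without YR array 3 and 0.49 without OR array 2. Pdpn, the lymphatic and stromal glycoprotein podoplanin, gave -0.86 ± 0.37, and its OR arrays (11.31, 10.74 and 11.31) were all below the OSR arrays (11.56, 12.37 and 12.18).

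Osteoclast genes had 9 of 10 positive interactions and a median of 0.28 (SD 0.13). Their median fixation difference was 0.20 in young and -0.18 in old rats, so that the medians of the list had opposite signs. By shape, whatever their p, 3 of the 10 genes were reversals, 2 old only, 3 young only and 2 of the same direction. Acp5 and Ctsk were at an unadjusted p under 0.05. Ctsk, the collagen-degrading cathepsin of osteoclasts, gave 12.44, 13.29 and 12.60 in YSR, 12.29, 12.30 and 12.32 in YR, 12.60, 12.71 and 13.03 in OSR and 13.92, 12.91 and 12.71 in OR. It was separated in young and overlapped in old rats, and its interaction was 0.88 ± 0.40. The interaction was 0.51 without OR array 1, and its p stayed under 0.05 in 8 of the 20 alternative fits. The summed signal of 13 osteoclast genes was 25944 to 37206 in OR against 16469 to 25631 in the other groups.

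Of 24 macrophage genes 17 had negative interactions. Their median of -0.25 was close to the within-group SD of 0.22 and ranged from -0.40 without OSR array 1 to -0.13 without OSR array 3 and -0.08 without OR array 2. The 2 at an unadjusted p under 0.05, Stab1 and Mrc1, were both negative. Mrc1, the mannose receptor of resident and alternatively activated macrophages, gave 13.11, 12.92 and 13.17 in YSR, 13.01, 13.37 and 13.23 in YR, 12.66, 12.96 and 13.22 in OSR and 12.58, 11.78 and 12.37 in OR. Its OR arrays were the lowest of all 12, and its interaction was -0.84 ± 0.28. Arg1, an enzyme of the same kind of macrophage, had -0.55 ± 0.28 with overlap in young rats. General macrophage markers hardly differed, with -0.11 for Cd68 and 0.03 for Csf1r.

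**Figure D3:**
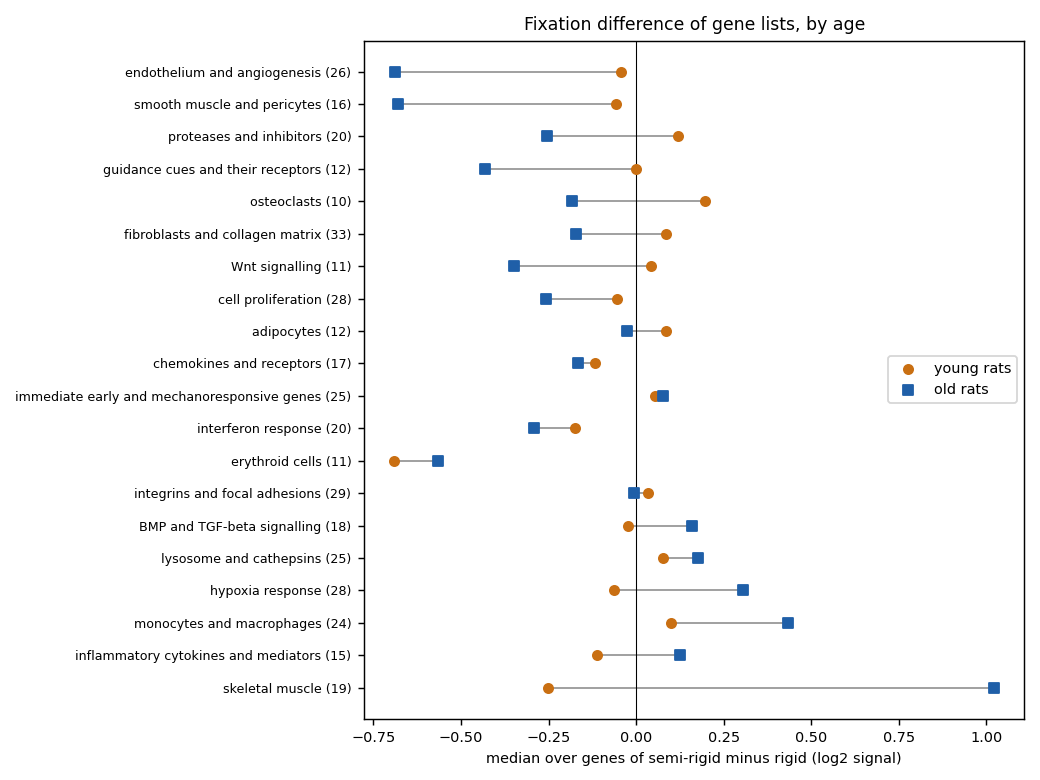
Median over the genes of each list (number in brackets) of semi-rigid minus rigid in young (circles) and old rats (squares), in log2 signal, for the lists with at least 10 genes, ordered by median interaction. Vessel and smooth muscle genes lie near 0 in young and at -0.69 and -0.68 in old rats, whereas skeletal muscle lies at -0.25 in young and 1.02 in old rats.

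Skeletal muscle genes had the largest median, -1.50, with 17 of 19 negative, but 0 members at an unadjusted p under 0.05. The within-group SD of the list median was 1.70, so that this difference was not detectable against the spread of the arrays. The median was -0.23 without OSR array 2 and -0.48 without OR array 2, against -3.09 without OSR array 1, -2.50 without OR array 1 and -2.98 without both arrays of high Gapdh ratio. Leaving out Myh1 gave -1.50 over 18 genes. Myod1, the myogenic transcription factor, came closest, with 10.08, 10.33 and 9.81 in YSR, 10.77, 9.73 and 10.30 in YR, 9.13, 9.50 and 9.50 in OSR and 9.47, 7.53 and 8.35 in OR. Its arrays overlapped at both ages and its interaction was -1.12 ± 0.56. Tnnt1, a troponin of slow fibres, spread from 4.996 to 9.11 within OR alone.

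**Figure D4:**
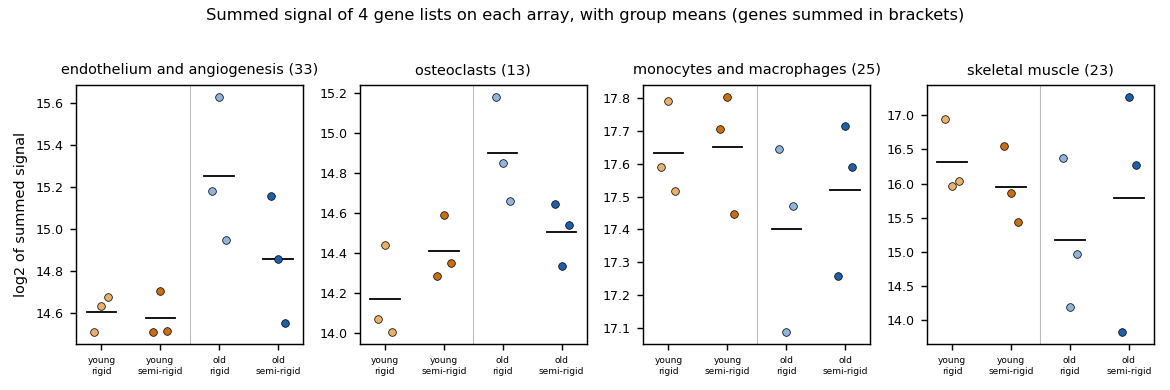
Summed signal of 4 gene lists on each array (log2 on the y axis; points, with group means as lines) by age and fixation; genes summed are given in brackets. The OR arrays are highest for osteoclasts, endothelial sums overlap between OR and OSR, and skeletal muscle, whose sum includes Myh1, spreads most within OSR and OR.

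Hypoxia genes had 24 of 28 negative interactions and a median of -0.21 (SD 0.18; -0.09 without OSR array 2 and -0.35 without OSR array 1), with a median fixation difference of -0.06 in young and 0.31 in old rats. The only member at an unadjusted p under 0.05 was Epas1, and it was positive at 1.08 ± 0.42, opposite to the list. Hk2, the hexokinase that traps glucose in cells, had -1.97 ± 0.91, but its YSR array 1 read 6.12 against 9.09 and 9.05 in the other YSR arrays, and its interaction was -0.57 without the 2 arrays of high Gapdh ratio. Pdk1, which keeps pyruvate from the mitochondria, was separated in old rats only (9.83, 10.16 and 10.37 in OSR against 9.75, 9.60 and 9.79 in OR) and had -0.46 ± 0.24.

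Cell cycle genes had 23 of 28 positive interactions and a median of 0.22, below the within-group SD of 0.25, with 0 at an unadjusted p under 0.05. The median was 0.06 without YSR array 3, 0.08 without OSR array 2, 0.10 without YR array 1 and 0.13 without OR array 2, and 0.33 and 0.37 without OSR array 1 and OR array 3. Cdk1 was the first of them, at 0.35 ± 0.18. Inflammatory mediators had 11 of 15 negative interactions and a median of -0.26 (SD 0.17; -0.15 without YR array 2 and -0.39 with the Gapdh ratio as a covariate), also with 0 at that limit. Ptgs2, the inducible cyclooxygenase, had -0.98 ± 0.65, with OR arrays that spread from 9.05 to 11.25. Wnt genes had a median of 0.27, no larger than their within-group SD of 0.28 and 0.16 without OSR array 3 (7 of 11 positive, Sfrp4 under the p limit). Guidance cues had a median of 0.30 (SD 0.19; 0.15 without OR array 2 and 0.46 without OR array 3), with 9 of 12 positive and Nrp2 under the p limit at 0.72 ± 0.27. Fat cell genes had a median of 0.21 (SD 0.13; 0.08 without YSR array 2), with 9 of 12 positive and 0 under the limit. The median interaction kept its sign in all 20 alternatives for each of these 13 lists. The alternatives refit the same arrays and are not independent of each other.

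The remaining lists had smaller medians or fewer genes. Medians were 0.10 for chemokines and receptors, whose sign was kept in 11 of 20 alternatives, 0.08 for immediate early and mechanoresponsive genes, 0.02 for the interferon response, 0.00 for erythroid cells, -0.01 for integrins and focal adhesions, -0.05 for BMP and TGF-beta signalling and -0.10 for lysosomal genes. Lists with fewer than 10 genes at the limit were osteoblasts and bone matrix (0.15, 4 genes), neutrophils (-0.01, 6), platelets (-0.07, 8), B and plasma cells (-0.14, 6), T and NK cells (-0.29, 4), mast cells and nerve (-0.27, 2) and cartilage (-0.86, 1). Their members were too few or too variable for a direction.

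Single arrays changed the number and the shape of the selected probe sets. The count at an unadjusted p under 0.05 was 699 without OSR array 1 and 625 without OR array 3, against 246 without OSR array 3. The added probe sets were mostly effects in old only, with 348 and 301 in place of 126, and this class held 72 without YSR array 3, 71 and 81 without YR arrays 1 and 2 and 61 without OSR array 3. Reversals ranged from 156 without OSR array 3 to 331 without YSR array 3. Effects in young only were 115 without both arrays of high Gapdh ratio, 142 without YSR array 3 and 79 without YR array 2, and they were 26 to 32 without OR array 3 or 2 or without any of the OSR arrays. All 400 probe sets kept their sign in all 20 fits, while between 184 and 392 of them kept a p under 0.05. As the 400 were chosen for interactions that were large against their SE, the kept signs are no support.

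**Figure D5:**
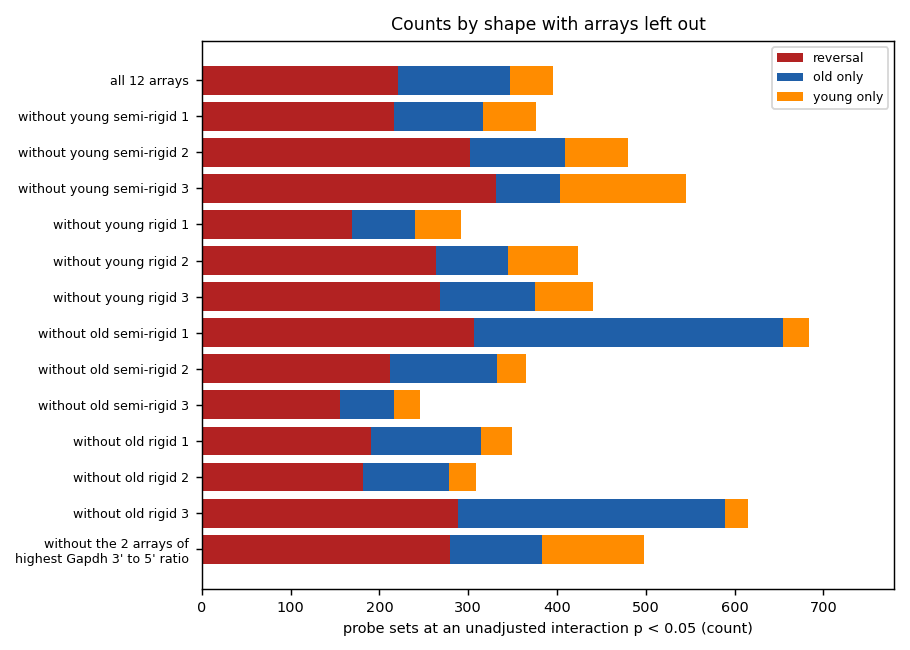
Number of probe sets at an unadjusted interaction p under 0.05 (x axis) by shape, with all 12 arrays, with each array left out and without the 2 arrays whose Gapdh ratio was highest. Reversals stay between 156 and 331, whereas effects in old only reach 348 and 301 when OSR array 1 or OR array 3 is left out.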

How the data were processed

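RNA of fracture hematoma (4 groups, 3 arrays each) was hybridized to Affymetrix rat arrays of 1 colour. Linear signal intensity was deposited by the authors after scaling every array to the same trimmed mean, for which the submitters' processing notes name GCOS 1.2. The PLIER summaries of the methods were left out. Signals below a floor of 1 were raised to it before log2 was taken. All 31042 probe sets without the 57 controls were fitted with limma 3.58.1 (intensity trend) in R 4.3.3, with Benjamini-Hochberg adjustment over all of them, and reported at a mean log2 signal of 8 or higher. The fit was tested on simulated data. Symbols came from the platform annotation (20832 probe sets with 1 symbol, 436 with several, 9831 with none). Named genes had 1 symbol, an unadjusted p under 0.05 and an interaction of at least 1 in size. The 5 with the smallest p per shape and direction were taken, with up to 4 members of a described list, Mmp9 and Mmp13. Members, lists and limits were chosen with earlier results of these data known. Alternatives were quantile normalization, log2 of signal plus 16, no intensity trend, fitting bright probe sets only, the methods' 2-way test, a replicate block, the Gapdh ratio as a covariate, other limits, left-out arrays and, added after seeing the data, the muscle list without Myh1. Replicate numbers did not pair arrays (median correlation of deviations 0.0219 over 18 same-numbered pairs, from -0.461 to 0.417). Figures were drawn with Python 3.11.15 and matplotlib 3.10.9.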

Additional observations from a re-analysis of the deposited data

How the results depend on the processing

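No probe set had an adjusted interaction p under 0.05 in limma under any of the alternatives, at any signal. All 112 named probe sets and all 400 selected ones kept the direction of their interaction in each of the 20 alternative fits, and 26 of the 112 kept an unadjusted p under 0.05 in all of them. The fits without the intensity trend, over bright probe sets, by the 2-way test and with a replicate block leave the interaction estimate itself unchanged. Most of the probe sets were also chosen for large interactions, so that the kept directions are no support. The number of probe sets at an unadjusted p under 0.05 was 400 and ranged from 246 to 699 when 1 array was left out. Over the same left-out arrays reversals ranged from 156 to 331, effects in old only from 61 to 348 and effects in young only from 26 to 142. Without the intensity trend the 4 counts were 201, 111, 60 and 29. Effects in young only numbered 115 without the 2 arrays whose Gapdh ratio was highest, 31 at a mean log2 signal of 9 or higher and 74 with limits of 0.35 and 0.65. With limits of 0.35 and 0.65 there were also 152 reversals and 170 effects in old only. Where an age had to reach its own unadjusted p under 0.05, there were 6 reversals, 207 effects in old only and 81 in young only. The numbers of the labels did not pair the arrays, and with a replicate block 422 probe sets were at an unadjusted p under 0.05 and 0 at an adjusted one, so that the block changed no call. With 3 arrays per group and a median standard error of 0.28 (log2), small interactions were not detectable, and the cause of the shifts between alternatives was not tested.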
